A study of Mus musculus with 16 samples.

Results

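The growth hormone and insulin-like growth factor (IGF) axis was followed through 10 of its genes, chosen by name from the 24011 gene symbols of the table. They were Igf1, Igfals, Igfbp1, Igfbp2, Igfbp3, Igfbp4, Igfbp5, Ghr, Socs2 and Cish, and all 10 were present. Their read counts were examined in 16 RNA-seq libraries made from aorta or liver of wild-type female C57BL/6 mice. All mice had been ovariectomized at 6 to 7 weeks of age and gave tissue 1 week later, so every library, vehicle included, came from ovariectomized animals. The explants, aortas or liver cut at the tip of its major lobe, stayed in DMEM for 4 h with estradiol (E2, an estrogen) at 10 nM or with the ethanol vehicle alone, with 4 libraries in each of the 4 groups. The labels give Ovation chemistry and 50 ng of RNA for 8 of them, and TruSeq poly-A selection and 600 ng of RNA, from a single aorta or liver piece, for the other 8. The series text describes replicates of 4 mice each, which does not match the TruSeq libraries.

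Growth hormone from the pituitary binds its receptor, the product of Ghr, and signals through the kinase JAK2 and the transcription factor STAT5. In liver this drives the gene of the circulating ligand IGF-I (Igf1) and of the acid-labile subunit (Igfals), which with IGFBP-3 holds IGF-I in a long-lived complex in plasma. The other IGF binding proteins carry or sequester the ligand in blood and tissue, and Socs2 and Cish encode STAT5-induced proteins that dampen cytokine receptor signalling. Many tissues outside the liver, the artery wall among them, make IGF-I and binding proteins locally.

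Stretches upstream of the 3 genes at the extremes of the tissue comparison were read from the RefSeq promoter table (build GRCm38.p6), which held 9 of the 10 genes. Igfbp1 had no read in most aorta libraries, Igfals stayed below 2 CPM there, and Igfbp5 was the only one of the 10 that was higher in aorta in both tissue comparisons. Each run covers bases 250 to 21 before a transcript start, 5′ to 3′ on the gene's strand, with capitals where a searched motif matched. The Igfals stretch is chr17:24877981-24878210 on the plus strand and precedes the start that has a match nearest to it. That of Igfbp1 is chr11:7197537-7197766 on the plus strand, and that of Igfbp5 is chr1:72874886-72875115 on the minus strand.
Igfals: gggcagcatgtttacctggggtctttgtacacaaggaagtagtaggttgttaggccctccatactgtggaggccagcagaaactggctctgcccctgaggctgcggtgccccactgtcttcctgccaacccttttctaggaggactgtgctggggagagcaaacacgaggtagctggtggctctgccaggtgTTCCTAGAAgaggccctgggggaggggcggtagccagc
Igfbp1: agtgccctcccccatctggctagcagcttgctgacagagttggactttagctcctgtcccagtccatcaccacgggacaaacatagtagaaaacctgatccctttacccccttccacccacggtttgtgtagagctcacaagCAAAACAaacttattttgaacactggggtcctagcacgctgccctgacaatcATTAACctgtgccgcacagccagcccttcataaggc
Igfbp5: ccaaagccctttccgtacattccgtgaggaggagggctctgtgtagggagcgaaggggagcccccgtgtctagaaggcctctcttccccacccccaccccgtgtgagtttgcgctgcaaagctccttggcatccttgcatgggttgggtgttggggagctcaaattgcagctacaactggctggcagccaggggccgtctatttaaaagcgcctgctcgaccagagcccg
The motifs searched on both strands were TTCNNNGAA, a STAT5-type palindrome, CAAAACA, a forkhead (insulin response) element, GTTAAT, one arm of an HNF1 site, and GGTCANNNTGACC, the palindromic estrogen response element. The first lay 58 bases before the Igfals start, and a second Igfals start had one 236 bases before it. In Igfbp1, CAAAACA lay 108 bases before the start and GTTAAT, on the other strand, 56 bases before it. Among all 32851 such windows of 230 bases in the table, 6.48% held TTCNNNGAA, 5.30% CAAAACA, 6.09% GTTAAT and 0.0578% GGTCANNNTGACC. No window of the 9 genes held the last of these, and the Igfbp5 window held none of the 4. A match describes letters only.

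Each column name ends in o1, o2, n1 or n2, which no label explains, and libraries are called by these suffixes. Reads counted to genes came to between 3896733 (liver with E2, n2) and 19823982 (aorta with vehicle, o2) per library. The labelled tissues matched their defining markers: the summed level of 10 hepatocyte genes was 73072 to 205123 CPM (counts per 1e+06 reads) in liver and 65.1 to 615 CPM in aorta, and that of 8 smooth muscle genes 10432 to 28636 CPM in aorta and 187 to 465 CPM in liver. None of these markers was at 0 in a whole group. The 6 adipocyte genes summed to 336 to 1171 CPM in aorta and 0.288 to 7.91 CPM in liver, where Lep was at 0. Levels of most genes differed between o and n libraries. Values of the 10 genes are therefore given for every library, always in the order o1, o2, n1, n2, and a batch of 3 levels (o1, o2 and n) was a covariate of every test. The levels follow the labels, which give different instruments for the Ovation replicates. They assume that o1 and o2 are those replicates and n the TruSeq libraries, which no label states.

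Aorta and liver were compared in the 8 vehicle libraries and again in the 8 E2 libraries, which share no library. In both comparisons 8 of the 10 genes were lower in aorta, Igfbp5 was higher, and Cish did not pass the threshold, an adjusted p under 0.05 with an absolute log2 difference over 1. The background was high. In vehicle 23.4% of all 12607 genes tested were called lower in aorta and 24.1% higher, and with E2 22.0% and 26.3% of 13061. The median log2 difference over the 10 genes was −2.40 in vehicle and −2.68 with E2, against 0.05 and 0.16 over all genes tested. The 10 were chosen with earlier results of these data known, and Igf1, Igfals, Igfbp1 and Igfbp2 are known liver products. A lower level in aorta was thus partly set by the choice of genes. Apart from Socs2, each called gene also passed within the o libraries alone and within the n libraries alone of both comparisons, with the same direction. Without the batch as a covariate the vehicle calls of Igf1, Igfbp2, Igfbp3, Igfbp4, Ghr and Socs2 and the E2 calls of Igf1, Igfbp4, Ghr and Socs2 were lost, at adjusted p of 0.0532 to 0.296 in edgeR's test. Whether the size differed between the letters was not tested. In bulk tissue, fewer cells of a type and less RNA per cell cannot be told apart.

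**Figure D1:**
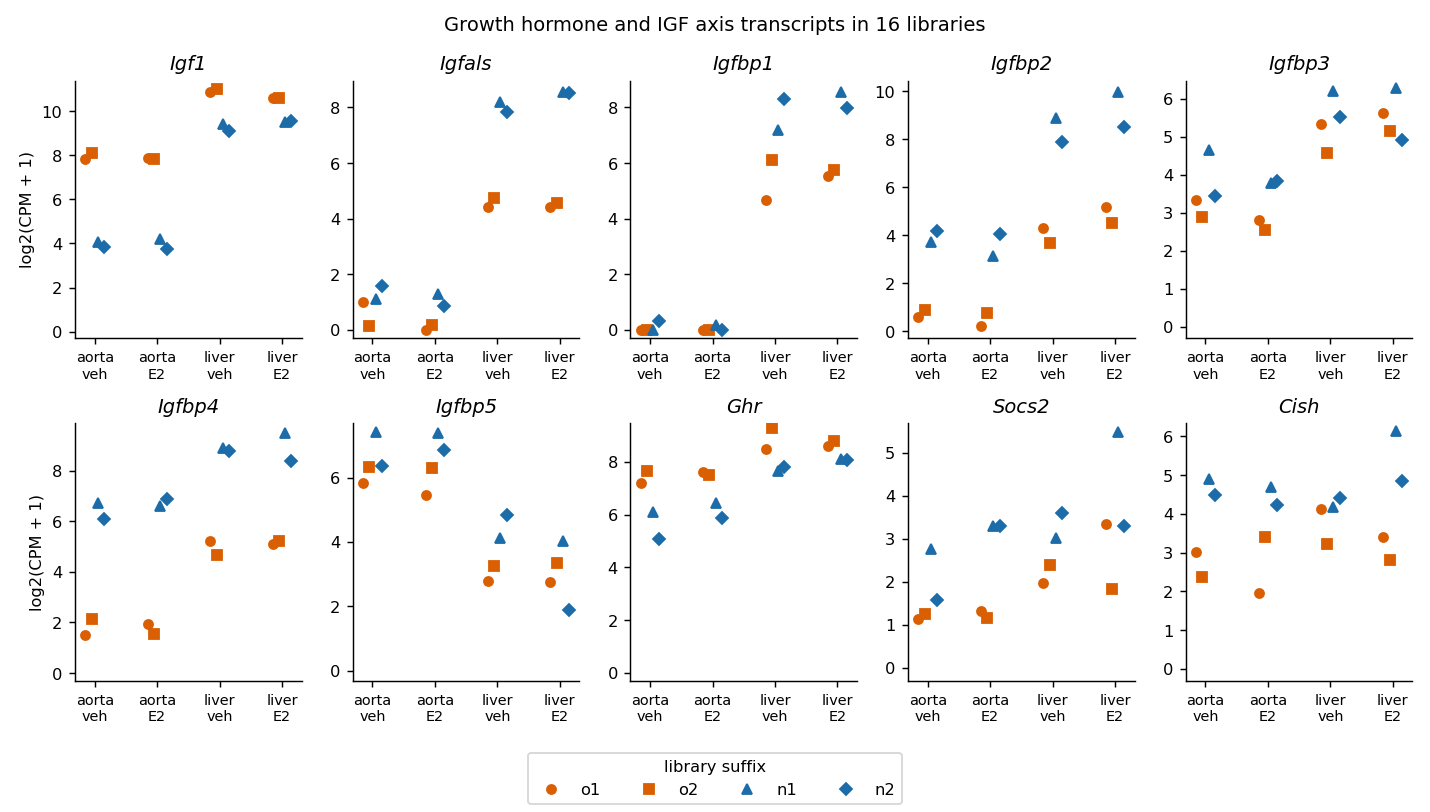
Level of each of the 10 genes in each library, as log2(CPM + 1), by tissue and treatment (veh, vehicle), with 1 point per library. Shape and colour give the suffix, and the vertical scale differs between panels. Igfbp5 is higher in aorta than in liver, Igfals and Igfbp1 lie near 0 there, and o and n libraries of 1 group are often far apart.

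Igf1, the ligand that carries much of growth hormone's effect on growth, was abundant in liver and present at a lower level in aorta. Its level was 1841, 2080, 675 and 541 CPM in liver with vehicle and 228, 275, 15.6 and 13.4 CPM in aorta with vehicle. With E2 it was 1531, 1523, 737 and 760 CPM in liver and 232, 224, 17.5 and 12.4 CPM in aorta. Every aorta library was below every liver library, and the o libraries were the higher ones in both tissues. The log2 difference, aorta over liver, was −4.19 ± 0.53 (SE) in vehicle and −4.13 ± 0.65 with E2, an 18.3-fold and a 17.5-fold lower level (adjusted p 4.46e-05 and 5.90e-04, edgeR quasi-likelihood, Benjamini-Hochberg). Its size varied with the library letter: within the o libraries the log2 difference was −2.97 in vehicle and −2.76 with E2, and within the n libraries −5.53 and −5.83. Aorta held 12.4% to 15.1% of the Igf1 level of the liver library with the same suffix in o libraries and 1.63% to 2.47% in n libraries. Over the hepatocyte markers the median of this percentage was 0.0198% to 0.40%. The highest single marker was at 2.16% to 6.69% in o libraries and 0.445% to 1.00% in n libraries.

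Igfals, whose product stabilizes the circulating IGF complex, was close to absent from aorta. It stood at 20.5, 25.5, 292 and 227 CPM in liver with vehicle and 20.2, 22.4, 371 and 370 CPM in liver with E2. In aorta it stood at 1.02, 0.0970, 1.15 and 1.96 CPM with vehicle and 0, 0.128, 1.46 and 0.829 CPM with E2. The aorta values rest on 6, 2, 29 and 25 reads in vehicle and 0, 2, 38 and 21 with E2. The log2 difference was −6.95 ± 0.58 in vehicle and −8.15 ± 0.51 with E2 (adjusted p 1.37e-06 and 1.50e-06, edgeR quasi-likelihood, Benjamini-Hochberg). Within o libraries it was −5.96 and −7.77, and within n libraries −7.56 and −8.50. The highest ratio to liver was 4.97%, in the vehicle o1 pair, whose aorta library also had the highest summed hepatocyte markers of the 8 aorta libraries (615 CPM). The other 7 pairs lay between 0% and 0.862%, and the part of liver RNA in these reads was not tested.

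Igfbp3, which completes the ternary complex, differed less between the tissues. Its level was 39.2, 22.8, 72.6 and 44.8 CPM in liver and 9.02, 6.40, 24.3 and 9.78 CPM in aorta with vehicle. With E2 it was 48.4, 34.3, 77.1 and 29.1 CPM in liver and 6.05, 4.87, 12.9 and 13.3 CPM in aorta. The ranges of the tissues met in vehicle, where aorta n1 lay above liver o2, but not with E2. Aorta was 3.73-fold lower in vehicle (log2 −1.90 ± 0.36) and 5.21-fold lower with E2 (log2 −2.38 ± 0.41), with adjusted p of 8.66e-04 and 0.00105 by edgeR quasi-likelihood, Benjamini-Hochberg. Within o libraries the log2 difference was −1.98 and −2.91, and within n libraries −1.92 and −2.15. Of the 3 genes of the ternary complex it was the one with the smallest tissue difference.

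Igfbp1, a binding protein that the liver makes in fasting and under low insulin, was the most liver-restricted of the 10. In liver it stood at 24.3, 68.6, 144 and 319 CPM with vehicle and 44.9, 53.4, 372 and 254 CPM with E2, higher in the n libraries. Of the 8 aorta libraries 6 had no Igfbp1 read. The vehicle n2 library had 3 reads (0.235 CPM) and the E2 n1 library 3 reads (0.115 CPM). A library without a read allows up to 3, a limit that covers counting error only. Over pooled libraries the liver had 3550 reads in vehicle and 4481 with E2, and the liver level, scaled to library size, was 3018 times that of aorta in vehicle (95% exact interval 1032 to 14642, counting error only) and 4481 times with E2 (1533 to 21739). Both comparisons passed the threshold (adjusted p 1.97e-07 and 1.43e-06, edgeR quasi-likelihood, Benjamini-Hochberg). Igfbp1 passed the read filter through liver alone, which largely sets a call in that direction, so these p-values add little to the read counts. A fitted fold depends on the prior count for a gene with so few reads in 1 tissue and is not given.

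Igfbp2, a binding protein abundant in fetal and adult liver, was lower in aorta but readily counted in its n libraries. Its level was 18.7, 11.7, 477 and 232 CPM in liver and 0.510, 0.825, 12.0 and 17.1 CPM in aorta with vehicle. With E2 it was 34.6, 21.6, 993 and 364 CPM in liver and 0.151, 0.705, 7.77 and 15.7 CPM in aorta. Within each letter every aorta library was below every liver library, whereas aorta n libraries overlapped liver o libraries in vehicle. The log2 difference was −4.52 ± 0.39 in vehicle and −5.76 ± 0.57 with E2 (adjusted p 1.96e-06 and 2.73e-05, edgeR quasi-likelihood, Benjamini-Hochberg), 22.9-fold and 54.3-fold lower. Within o libraries it was −4.30 and −5.72, and within n libraries −4.76 and −5.96.

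Igfbp4, which inhibits IGF action until it is cleaved by the protease PAPP-A, was 7.50-fold lower in aorta in vehicle and 7.84-fold lower with E2. Liver held 36.0, 24.4, 477 and 436 CPM with vehicle and 33.1, 36.0, 721 and 336 CPM with E2. Aorta held 1.87, 3.4, 104 and 67.9 CPM with vehicle and 2.87, 1.92, 95.5 and 117 CPM with E2. The order of the tissues was the same within each letter, but the aorta n libraries lay above all 4 liver o libraries. The log2 differences were −2.91 ± 0.36 and −2.97 ± 0.47 (adjusted p 3.92e-05 and 6.18e-04, edgeR quasi-likelihood, Benjamini-Hochberg). Those of the o libraries were −3.43 and −3.90, and those of the n libraries −2.55 and −2.43.

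Igfbp5, a binding protein that attaches to extracellular matrix and is made by smooth muscle and fibroblasts, ran the other way. Aorta held 56.3, 79.8, 170 and 81.3 CPM with vehicle and 43.1, 78.2, 166 and 116 CPM with E2. Liver held 5.87, 8.63, 16.5 and 27.9 CPM with vehicle and 5.76, 9.20, 15.5 and 2.70 CPM with E2. The value of 2.70 CPM rests on 8 reads. Every aorta library was above every liver library, in o and n libraries alike. The level in aorta was 7.08-fold higher in vehicle (log2 2.82 ± 0.36, adjusted p 4.89e-05) and 11.5-fold higher with E2 (log2 3.53 ± 0.53, adjusted p 4.18e-04, both by edgeR quasi-likelihood, Benjamini-Hochberg). The log2 difference was 3.23 and 3.0 within o libraries and 2.36 and 3.71 within n libraries. Between the tissues it went with the smooth muscle markers given above and with 8 fibroblast genes (summed 2279 to 6632 CPM in aorta and 477 to 1346 CPM in liver). Among aorta libraries Igfbp5 was highest in n1, where the smooth muscle sum was lowest (10908 CPM with vehicle, 10432 CPM with E2). Within a letter and treatment, the aorta library with more Igfbp5 had the higher fibroblast sum. It had the higher smooth muscle sum in o libraries only. Between the letters, n libraries of aorta had more Igfbp5 and lower fibroblast sums than o libraries. The part of these cell types in the difference was not tested.

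Ghr, the growth hormone receptor, was well expressed in both tissues. Liver held 363, 617, 199 and 222 CPM with vehicle and 384, 446, 272 and 268 CPM with E2. Aorta held 146, 201, 67.2 and 32.9 CPM with vehicle and 196, 178, 85.2 and 57.3 CPM with E2. The aorta was lower within each letter, at 14.8% to 51.0% of the liver library with the same suffix. The level was 3.47-fold lower in vehicle (log2 −1.80 ± 0.32) and 2.77-fold lower with E2 (log2 −1.47 ± 0.34), with adjusted p of 6.31e-04 and 0.00504 by edgeR quasi-likelihood, Benjamini-Hochberg. In o libraries the log2 difference was −1.48 and −1.16, and in n libraries −2.22 and −2.10.

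Socs2 and Cish, the feedback inhibitors, had the largest adjusted p of the 10 in both comparisons. Socs2 stood at 2.93, 4.26, 7.13 and 11.1 CPM in liver and 1.19, 1.36, 5.77 and 1.96 CPM in aorta with vehicle. With E2 it stood at 9.22, 2.53, 43.5 and 8.78 CPM in liver and 1.51, 1.22, 8.85 and 8.84 CPM in aorta. The log2 difference of Socs2 was −1.37 ± 0.49 in vehicle and −1.60 ± 0.52 with E2 (adjusted p 0.0336 and 0.0284, edgeR quasi-likelihood, Benjamini-Hochberg). The ranges of the tissues overlapped, and the call was fragile: the adjusted p was 0.0623 with E2 when the suffix entered as a replicate block, and the vehicle call was lost without any 1 of the 8 libraries except aorta n1, at log2 differences of −1.13 to −1.42. In vehicle neither letter alone passed (o −1.49, n −1.36). With E2 the n libraries passed (−1.70) and the o libraries did not (−1.81). The E2 call was lost without liver o1, liver n1 or aorta o1, n1 or n2, at log2 differences of −1.09 to −1.63.

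Cish was the one gene with no call in either comparison. It stood at 16.5, 8.33, 17.1 and 20.4 CPM in liver and 7.15, 4.17, 28.6 and 21.6 CPM in aorta with vehicle. With E2 it stood at 9.50, 5.97, 69.4 and 27.7 CPM in liver and 2.87, 9.62, 24.7 and 17.9 CPM in aorta. In vehicle the n libraries of aorta were above those of liver and the o libraries below, and the log2 difference was −0.34 ± 0.39, with 0.28 in n and −1.11 in o libraries alone (adjusted p 0.482, edgeR quasi-likelihood, Benjamini-Hochberg). With E2 it was −0.78 ± 0.48 (adjusted p 0.200), and it passed at −1.32 in the n libraries alone, at −1.36 without liver o2 and at −1.35 without aorta o2 (adjusted p 0.00807, 0.0370 and 0.0397 in edgeR's test).

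**Figure D2:**
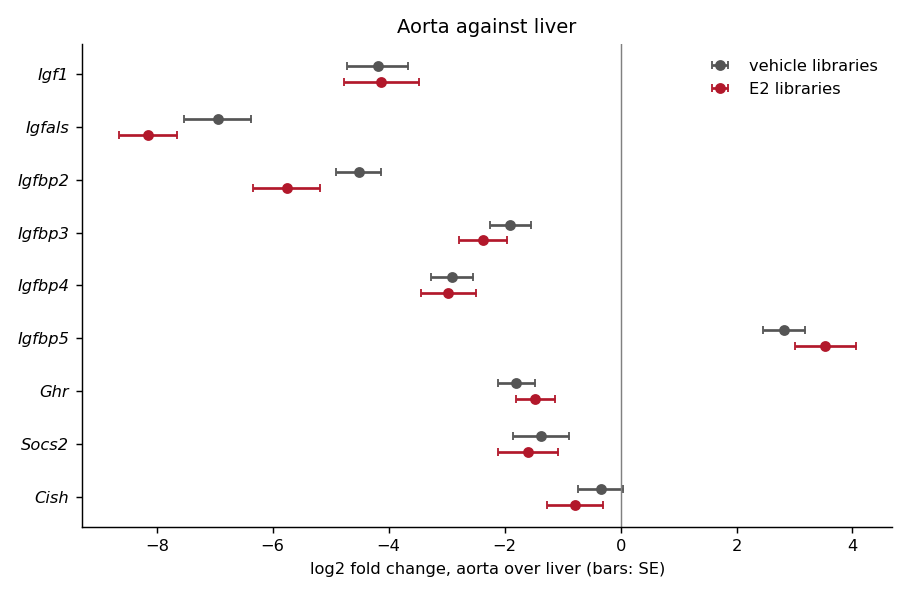
Log2 fold change of aorta over liver for 9 of the 10 genes, in vehicle and in E2 libraries, with bars of 1 SE from edgeR's quasi-likelihood fit (4 against 4 libraries). Igfbp1 is left out for want of aorta reads. Igfbp5 alone lies to the right of 0, and Cish lies nearest to 0.

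Divided by transcript length, the levels gave an order of the genes within a tissue, which changed with the library letter. In liver o libraries Igf1 led with a mean of 247 CPM per kb, then came Ghr with 108 and Igfbp1 with 31.3, and Igfbp5 was lowest with 1.23. Igf1 and Ghr each stood above the gene that followed over all 4 libraries. In liver n libraries Igfbp2 led with 395 CPM per kb, ahead of Igfbp1 with 179, Igfbp4 with 128, Igfals with 120 and Igf1 with 96.2. The first 4 of these each overlapped the next, Igf1 stood above Ghr, and Igfbp5 was again lowest with 2.60. In aorta o libraries Ghr (43.2 CPM per kb) and Igf1 (34.0) led and overlapped each other, and Igfbp5 followed with 10.7. In aorta n libraries Igfbp4 (25.1), Igfbp5 (22.2) and Ghr (14.5) led, each overlapping the next, and Igf1 was at 2.09. Igfals and Igfbp1 closed the order in aorta under both letters.

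The n and o libraries separated most of the 10 genes, as they did most genes. In aorta the 4 n libraries did not overlap the 4 o libraries for 8 of 9 tested genes, 6 higher in n and 2 lower, against 67.4% of all 13698 tested. In liver they did not overlap for 7 of 10, 5 higher in n and 2 lower, against 71.0% of all 11726, so the share in liver was near the background. Igf1 and Ghr were the lower ones in both tissues. Mean Igf1 was 16.3-fold higher in o than in n libraries of aorta and 2.57-fold higher in liver, and Ghr 2.97-fold and 1.88-fold. Igfbp4 was 38.2-fold higher in n libraries of aorta and 15.2-fold in liver, and Igfbp2 24.0-fold and 23.9-fold. Igfals was 14.2-fold higher in n libraries of liver.

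The genes that were lower in n libraries had a low GC content in their longest coding transcript. Igf1 had 38.0% GC, at percentile 0.999 of the genes tested in liver, and Ghr 40.9%, at percentile 6.20. Igfbp2 had 62.1%, at percentile 98.5, Igfals 58.9% and Igfbp4 55.1%. Across all genes with a GC value (12783 in aorta, 11015 in liver), the Spearman correlation between GC content and the difference of n from o libraries was 0.620 in aorta and 0.560 in liver, a description across genes that share these libraries. On the log2(mean CPM + 1) scale, Igf1 and Igfals in aorta lay below the middle 50% of genes of like GC content. Above it lay Igfbp2, Igfbp4 and Socs2 in both tissues, Igfals and Igfbp1 in liver, and Igfbp5 in aorta. In aorta Igfbp2 (3.19 against an upper edge of 3.18) and Igfbp5 (1.04 against 0.996) cleared it narrowly. Adding 1 to the mean shrinks differences near the floor. This affects Igfals in aorta, with means of 0.312 CPM in o and 1.35 CPM in n libraries, a 4.34-fold ratio. Its place below the band may come from this. Igfbp2 in aorta, at a mean of 0.548 CPM in o libraries, is shrunk too.

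**Figure D3:**
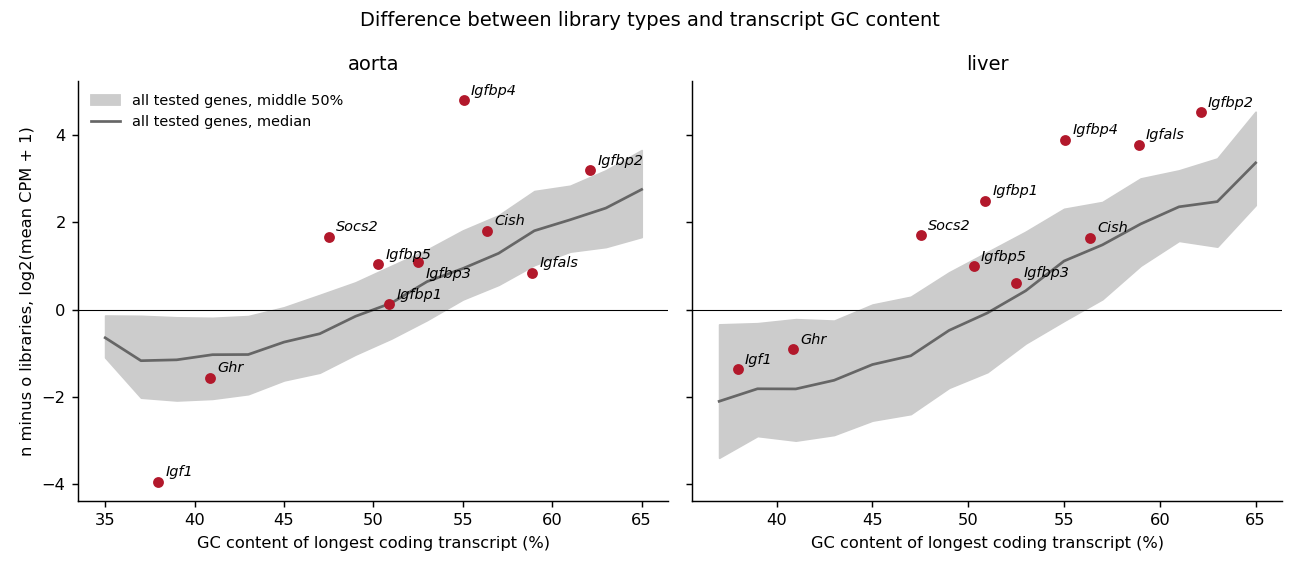
Difference between n and o libraries, log2(mean CPM + 1), against the GC content of the longest coding transcript, in aorta and liver. The line and band give the median and middle 50% of tested genes in bins of GC content, and red points are the 10 genes (Igfbp1 was not tested in aorta). Igf1 and Ghr lie below 0 at low GC content, and Igfbp2 and Igfbp4 lie far above 0.

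The rest of the pathway, a list of 44 other genes of growth hormone and IGF signalling, stood higher in aorta for the most part. Of 36 tested in vehicle 19 were called higher in aorta, 6 lower and 11 not called. Over all genes 24.1% were called higher and 23.4% lower. The median log2 difference was 1.13 against 0.05 over all genes. With E2 the counts over 38 tested were 20, 3 and 15, against 26.3% higher and 22.0% lower over all genes. The median was 1.41 against 0.16. Genes with few liver reads, Igf2, Pappa, Stc1 and Stc2 among them, passed the read filter through aorta, which favours calls in that direction. Igf1r, the receptor of IGF-I, stood at 166, 172, 67.5 and 46.7 CPM in aorta and 33.9, 34.4, 6.00 and 7.75 CPM in liver with vehicle. Every aorta library with vehicle was above every liver library with vehicle, whereas with E2 liver o2 (58.7 CPM) was above aorta n2 (58.0 CPM). Igf1r was higher in aorta by log2 2.64 ± 0.31 in vehicle and 3.32 ± 0.47 with E2. Igf2r, which clears IGF-II, was higher by 1.26 ± 0.32 and 1.31 ± 0.39. The second ligand gene, Igf2, was low in both tissues, at 4.38 to 7.23 CPM in aorta and 0.406 to 1.88 CPM in liver with vehicle, and higher in aorta by log2 2.27 ± 0.56. Igfbp6 (1.06 ± 0.31) and Igfbp7 (1.29 ± 0.37) were also higher in vehicle, as was Htra1, a protease that cleaves binding proteins (3.92 ± 0.36). Stc1 and Stc2, whose products inhibit the protease PAPP-A, were higher by 5.16 ± 0.64 and 2.80 ± 0.53. In liver with vehicle Stc1 stood at 0.533, 4.06, 0 and 0.633 CPM and Stc2 at 0.533, 0.609, 2.63 and 1.27 CPM. These liver values are near the floor, and both genes passed the read filter through aorta.

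Among the signalling genes, Jak2 was higher in aorta (1.19 ± 0.42 in vehicle). Its level with vehicle was 367, 222, 98.3 and 53.5 CPM in aorta and 192, 242, 12.9 and 24.1 CPM in liver, so the order turned in o2. Stat3 was also higher in aorta (1.66 ± 0.36), as was the phosphatase gene Ptpn11 (2.23 ± 0.42), both in all 4 suffixes. The inhibitor Socs1 passed too (2.59 ± 0.67), on n libraries almost alone: its o libraries held 0 to 0.170 CPM with vehicle in either tissue. The direct growth hormone effectors did not pass: Stat5a was at 0.18 ± 0.34 and Stat5b at −0.08 ± 0.33. Among those lower in aorta in vehicle were Prlr, the prolactin receptor (−6.79 ± 0.53), Ptpn6 (−2.42 ± 0.69), Irs1 (−1.68 ± 0.33), Grb14 (−1.48 ± 0.34) and Sh2b1 (−1.11 ± 0.32). With E2 the 3 lower genes were Prlr, Ptpn6 and Grb14.

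Liver genes known to follow growth hormone or its pulse pattern formed a list of 19. In the E2 comparisons 15 of them passed the read filter in liver and 6 in aorta. A lower level in aorta was thus largely set by the choice of list. Over all genes 23.4% were called lower and 24.1% higher in aorta in vehicle, and 22.0% and 26.3% with E2. Of 14 tested in vehicle 12 were lower in aorta, among them Cux2 (−6.99 ± 0.51), a female-predominant repressor gene, and Cyp7b1 (−3.75 ± 0.63), an oxysterol hydroxylase gene. Bcl6, a STAT5-repressed regulator expressed in many tissues, was higher (1.36 ± 0.34), and the fatty acid elongase gene Elovl3 was at 0.79 ± 0.64. With E2 12 of 14 were lower and 2 higher, Bcl6 (2.06 ± 0.39) and Elovl3 (3.27 ± 0.72). Elovl3 was near the floor in the o libraries with E2, at 1.06 and 3.7 CPM in aorta and 0.864 and 0 CPM in liver. In the n libraries with E2 it held 63.7 and 31.7 CPM in aorta and 5.99 and 4.05 CPM in liver. The adipocyte markers given above were also higher in aorta, and their part in the Elovl3 level was not tested.

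E2 was compared with vehicle within each tissue, a question the series title poses as tissue-specific regulation by estrogen. None of the 10 genes was called in either tissue. The background was 0% in aorta and 0% in liver, with 495 of 13698 and 502 of 11726 genes at an unadjusted p under 0.05 in edgeR's quasi-likelihood test and smallest adjusted p of 0.0898 and 0.939. DESeq2 called 24 genes in aorta and 0 in liver, limma voom 0 in both, and edgeR with the suffix as a replicate block 12 in aorta, with none of the 10 among them under any of these. Over 9 tested genes in aorta 3 were higher and 6 lower with E2 (median log2 fold change −0.07, all genes −0.01). Over 10 in liver 8 were higher and 2 lower (median 0.22, all genes −0.01).

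Igf1 with E2 was at a log2 fold change of −0.07 ± 0.17 in aorta and −0.02 ± 0.22 in liver, and Ghr at 0.30 ± 0.25 and 0.09 ± 0.21. The liver value of Igf1 averaged opposite letters: it was −0.34 ± 0.14 in o libraries alone, lower with E2 in both suffixes, and 0.30 ± 0.25 in n libraries alone, higher in both. Neither passed (adjusted p 0.647 and 0.574 in edgeR's test), and the difference between the letters was not tested. Igfals was at −0.75 ± 0.64 in aorta, on few reads, and 0.23 ± 0.21 in liver. Among the binding proteins of aorta, Igfbp3 was at −0.44 ± 0.28, Igfbp4 at 0.09 ± 0.26 and Igfbp5 at −0.03 ± 0.25. The Igfbp3 value was −0.09 without vehicle n1 and −0.68 ± 0.19 without vehicle n2. In liver, Igfbp1 was at 0.33 ± 0.27, Igfbp3 at 0.15 ± 0.28, Igfbp4 at 0.22 ± 0.24 and Igfbp5 at −0.63 ± 0.45. The Igfbp5 value leaned on the E2 n2 library, which held 8 reads of it, and was −0.22 ± 0.34 without that library. Igfbp1 did not reach the filter in aorta and was not tested there. In the main fits on all 8 libraries of a tissue, the adjusted p of each tested gene was 0.939 or higher (edgeR quasi-likelihood, Benjamini-Hochberg).

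**Figure D4:**
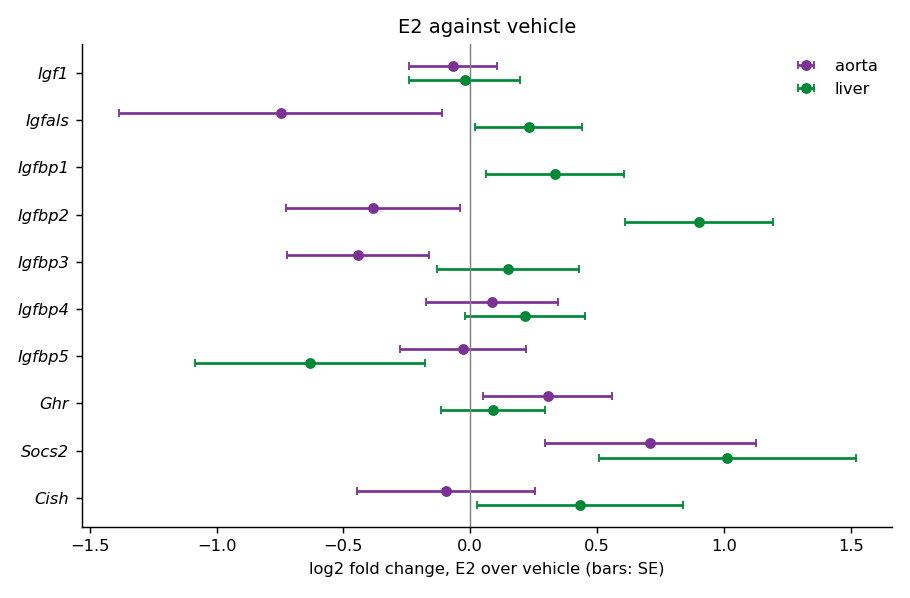
Log2 fold change of E2 over vehicle in aorta and in liver for each gene, with bars of 1 SE from edgeR's quasi-likelihood fit (4 against 4 libraries per tissue). Igfbp1 has no aorta value. Most bars reach or nearly reach 0, and Igfbp2 in liver is the farthest from 0 for its SE.

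Igfbp2 was the gene of the 10 with the smallest unadjusted p in liver, and is singled out after its values were seen. Its level in liver was higher with E2 than with vehicle in all 4 suffixes, by 0.85, 0.84, 1.05 and 0.64 on the log2(CPM + 1) scale. In aorta it was lower in all 4, with differences of −0.39, −0.10, −0.56 and −0.11. The labels do not pair libraries by suffix. Vehicle n1 set against E2 n2 goes the other way in both tissues (477 and 364 CPM in liver, 12.0 and 15.7 CPM in aorta). The aorta o values rest on few reads, 3 with vehicle against 1 with E2 in o1 and 17 against 11 in o2. The fitted log2 fold change was 0.90 ± 0.29 in liver (unadjusted p 0.00743, adjusted p 0.939, edgeR quasi-likelihood, Benjamini-Hochberg) and −0.38 ± 0.34 in aorta (unadjusted p 0.290). The difference of the E2 effects, aorta minus liver, was −1.26 ± 0.50 (unadjusted p 0.0225, adjusted p 0.875), the smallest p of the 10 in this interaction. None of the 10 was called in it, against a background of 0% of 14190 genes. At an unadjusted p under 0.05 it had 761 genes, and DESeq2 called 10. Without the liver E2 n1 library the liver value was 0.57 ± 0.30.

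That library stood apart for several of the 10. It also had 51.6% of its reads in genes, against 37.5% to 39.9% in the other n libraries of liver, 11556815 counts against 3896733 to 6154808, and the highest summed hepatocyte level (205123 CPM). The part of these in its values was not tested. Socs2 was at 43.5 CPM in it, against 7.13 to 11.1 CPM in the other n libraries of liver, and Cish at 69.4 CPM against 17.1 to 27.7 CPM. On the log2(CPM + 1) scale Socs2 lay 1.88 above the highest of the other 3 n libraries of liver, the largest such excess of all 24011 genes. Cish lay 1.29 above, rank 12 of all genes, Igfbp2 1.05 above, rank 33, and Igfbp4 0.60 above, rank 463. Igf1 (−0.04) and Igfals (0.0034) lay at the level of the highest other n library. The E2 effect in liver was 1.01 ± 0.51 for Socs2 (unadjusted p 0.0642) and 0.43 ± 0.41 for Cish with all 8 libraries, and 0.23 ± 0.52 and −0.08 ± 0.35 without this one. Socs2 was higher with E2 in 2 of 4 suffixes in liver and in 3 of 4 in aorta, where the effect was 0.71 ± 0.42. The aorta value was 0.35 ± 0.30 without vehicle n2, 0.04 in o libraries alone and 1.17 in n libraries alone. Cish was higher in 2 of 4 in liver and 1 of 4 in aorta (−0.10 ± 0.35).

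**Figure D5:**
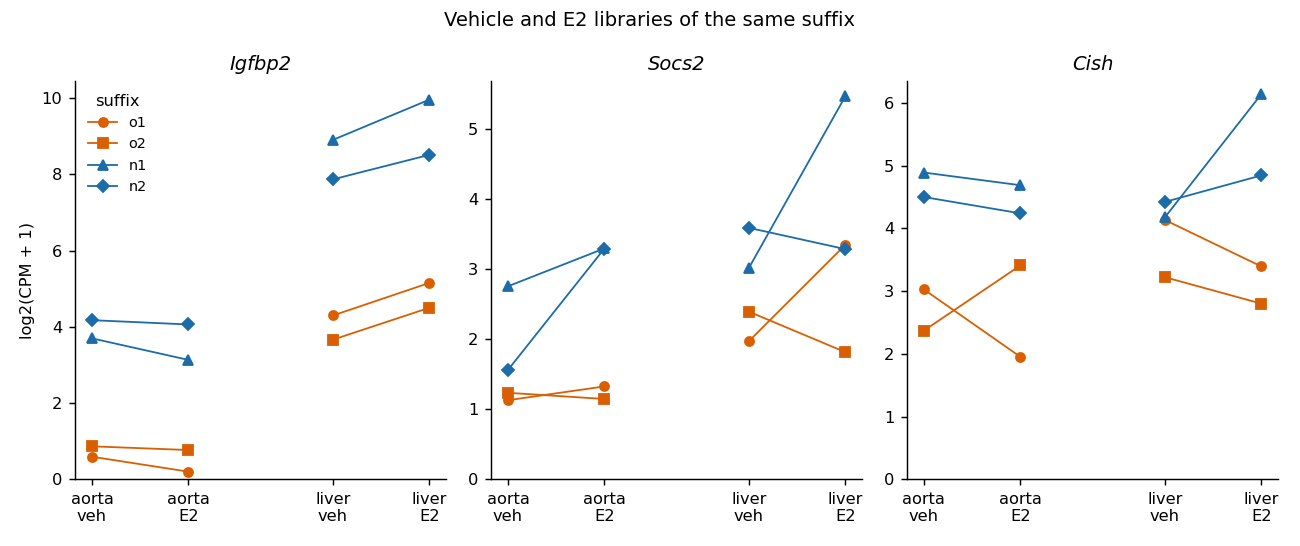
Level of Igfbp2, Socs2 and Cish in the vehicle and E2 library of each suffix, as log2(CPM + 1), with a line joining libraries of 1 suffix (whether suffixes pair libraries is not stated in the labels). Igfbp2 lines all slope up in liver and down in aorta, and the liver n1 line is the steepest for Socs2 and Cish.

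The rest of the axis was also without a call for E2. Of the 44 other pathway genes 0 of 38 tested in aorta passed (25 higher, 13 lower, median 0.09) and 0 of 32 in liver (11 higher, 21 lower, median −0.14). Of the growth hormone-responsive list 0 of 15 passed in liver (9 higher, 6 lower, median 0.15) and 0 of 6 in aorta. All genes had a median of −0.01 in each tissue.

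The genes most like each of the 10 over the 16 libraries were named by the highest Pearson r of log2 CPM among 14189 genes. The libraries fall into 4 sets by tissue and letter, so r describes likeness in those 2 respects and carries no test. Igf1 was nearest to Cyp4v3 (r 0.973), Chn2 (0.970) and Fras1 (0.969). Igfals was nearest to Pemt (0.996), Igfbp1 to Lect2 (0.996), Igfbp2 to Nelfcd (0.985), Igfbp3 to Wwc1 (0.972) and Igfbp4 to Fam134a (0.990). Pemt, a phospholipid methyltransferase gene, and Lect2, a hepatokine gene, are known for their expression in liver. Igfbp5 was nearest to Vapa (0.976), Cdc42ep3 (0.971) and Pgm5 (0.970). Ghr was nearest to Cdo1 (0.975) and Clcc1 (0.973), and then to Igf1 itself (0.961). Socs2 and Cish had no gene as close, with Itfg3 at 0.920 and Col18a1 at 0.923.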

How the data were processed

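RNA was measured in 16 libraries: 4 each of aorta and liver with vehicle and with E2. The authors deposited 1 table of read counts per gene symbol. It was entered as estimated counts because each deposited column ends with a percentage, but every gene value was whole, so rounding changed nothing, and 8 lines that name no gene were left out. Reads in genes were 24.7% to 51.6% of a library. Per the submitters' processing notes, Bowtie 0.12.5, HTSeq 0.4.5p7, edgeR 3.4.2 and build mm9 were used. Not given in the sources used here are the annotation, the strand setting and the filters, so overlapping and antisense genes cannot be told apart. Columns were matched to groups by tissue and treatment.

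Counts were tested with edgeR 4.0.16 (R 4.3.3; glmQLFit, glmQLFTest, TMM, filterByExpr by group with minimum count 10 and minimum total 15), with Benjamini-Hochberg adjustment over all genes tested. Calls need an adjusted p under 0.05 and, between tissues, an absolute log2 difference over 1. The batch covariate had the levels o1, o2 and n. E2 was tested within each tissue's 8 libraries, tissue within the 8 vehicle and the 8 E2 libraries, and the interaction over all 16. SE was taken as the size of the log2 fold change over the root of F. CPM use TMM library sizes over all 16 libraries. Transcript length and GC content come from GENCODE M21. The fits were tested on simulated data. Labels do not say that all libraries of a group came from separate animals, so p-values measure the spread between libraries, which may be partly technical.

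The 10 genes and all lists were chosen with earlier results of these data known. Named genes are the 10, pathway genes past the threshold or needed for a result, and the 3 most alike genes, of which some are not reported here. Other settings were DESeq2 1.42.0, limma 3.58.1 voom, RLE scaling, no filter, no batch covariate, a replicate block, each letter alone, Rn45s left out and each library left out. Deviations of same-suffix vehicle and E2 libraries from their group means correlated across genes at 0.850 to 0.893 in aorta and 0.850 to 0.907 in liver. With the mean of each letter removed, r was 0.375 (o) and 0.328 (n) in aorta and 0.253 and −0.0583 in liver, so no pairing by suffix was settled. The main fits do not pair n1 or n2, and the replicate block is an alternative.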

Additional observations from a re-analysis of the deposited data

Results flagged for a closer look

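Among 40 sets of 4 libraries (10 genes in 4 groups), 4 had a highest library far from the other 3, and for Socs2 alone this rests on more than 3 reads. The criterion passes about 1 in 20 sets drawn from 1 normal distribution. The sets here mix o and n libraries, which differed for most of the 10 genes, so that rate does not hold for them. Socs2 was at 43.5 CPM in the n1 library of liver with E2, against 2.53 to 9.22 CPM in the others. Socs2 was also at 5.77 CPM in the n1 library of aorta with vehicle, against 1.19 to 1.96 CPM. Igfbp1 was at 0.235 CPM in the n2 library of aorta with vehicle and at 0.115 CPM in the n1 library of aorta with E2, in each case 3 reads against 0 in the other 3 libraries, a pattern that meets the criterion by construction whatever the number of reads, so these add nothing to the count.

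The E2 effect on Igfbp2 went in opposite directions in the tissues in every suffix, higher in liver in 4 of 4 and lower in aorta in 4 of 4, where o1 rests on 1 read against 3 and o2 on 11 against 17. These counts depend on joining libraries by suffix, which the labels do not state. Vehicle n1 against E2 n2 goes the other way in both tissues. The share of all genes with such an opposed pattern was not computed. The interaction, aorta minus liver, was −1.26 ± 0.50 on the log2 scale. It did not pass the threshold (adjusted p 0.875, edgeR's quasi-likelihood test), and its adjusted p ran from 0.494 to 1 over 25 other settings.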

How the results depend on the processing

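Over 686 recomputed values of the 10 genes, 611 kept their direction and side of the threshold, 29 lost a call, 3 gained one and 43 turned sign, and the cause was not tested. No gene called between the tissues turned sign. Igfals, Igfbp1 and Igfbp5 kept both calls under every setting. Without the batch covariate genes called between the tissues fell from 5986 to 2447 in vehicle and from 6302 to 2655 with E2. Socs2 also lost its vehicle call without Rn45s and its E2 call with no filter and with limma voom. Leaving out Rn45s, a ribosomal RNA gene with 25.7% to 34.5% of counts in liver o libraries, moved the median of all genes in vehicle from 0.05 to 0.19.

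For E2 in aorta, DESeq2 called 24 genes, o libraries alone 33, the replicate block 12, and fits without 1 library 0 to 17 (17 without vehicle n2). In liver, no filter gave 6, o libraries alone 5, n libraries alone 1, and fits without 1 library 0 to 1. In the interaction, DESeq2 called 10, o libraries alone 2, the replicate block 1, and fits without 1 library 0 to 4 (4 without aorta vehicle n1). The replicate block ended the E2 call of Socs2 between the tissues and changed no other call of the 10.

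Uncalled values that turned sign were, for E2 in aorta, Igfbp5 with voom (0.021), the replicate block (0.0080), no batch covariate (0.043) and n libraries alone (0.16), Igf1 with n alone (0.036), and with o alone Igfbp4 (−0.22) and Cish (0.16). Without 1 library Igf1 ran from −0.17 to 0.027, Igfbp4 from −0.11 to 0.36, Igfbp5 from −0.23 to 0.20 and Cish from −0.53 to 0.20. In liver they were Igf1 with RLE (0.027), DESeq2 (0.027) and n alone (0.30), Ghr with no batch covariate (−0.024), with o alone Ghr (−0.18), Igfals (−0.10), Igfbp5 (0.055) and Cish (−0.62), and Igfbp3 with n alone (−0.19). Without 1 library Igf1 ran from −0.15 to 0.14, Ghr from −0.00037 to 0.30, Igfbp3 from −0.055 to 0.41, Igfbp4 from −0.010 to 0.40 and Cish from −0.082 to 0.80. Between tissues in vehicle, Cish was 0.28 with n alone and −0.54 to 0.065 without 1 library. Other E2 values kept their sign without 1 library but moved by over 1.5 times: in aorta Igfals from −1.16 to −0.31, Igfbp2 from −0.75 to −0.12, Igfbp3 from −0.68 to −0.088, Ghr from 0.10 to 0.52 and Socs2 from 0.35 to 1.03, and in liver Igfals from 0.092 to 0.39, Igfbp1 from 0.12 to 0.60, Igfbp2 from 0.57 to 1.16, Igfbp5 from −0.91 to −0.22 and Socs2 from 0.23 to 1.57. Low counts limit Igfals and Igfbp1 in aorta.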
